A study of Caenorhabditis elegans with 4 samples.

Results

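A group of 114 protein-coding genes had high ratios in young adult gonads and low ratios in aged adult gonads when RNA of the cde-1 mutant was set against RNA of the wildtype. A gene entered the group when its deposited log10 ratio was above 0.1 on both young adult arrays and below -0.1 on both aged adult arrays, a size of 1.26-fold at the cutoff. Of 6936 coding genes with a named probe, 2148 had a ratio on all 4 arrays, and the 114 were drawn from these. The members were chosen by the ratios of all 4 arrays, so their values are given as a description and carry no test.

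RNA came from dissected gonads of C. elegans, either strain cde-1 tm1021 or the wildtype strain N2, and 250 gonads were collected for each sample. The labels call the worms young adult or aged adult and give no age, and one mutant line stands for the genotype. Each of the 4 arrays held mutant RNA in one colour and wildtype RNA of the same stage in the other, and a stage was hybridised once in each orientation of the dyes. Both arrays of a stage carry the same cDNAs and therefore count as 1 replicate of it, with 1 RNA sample per stage and genotype, so no difference between stages has a replicate check.

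CDE-1 is a terminal uridylyltransferase of the germline. It adds uridines to small RNAs that are bound by the Argonaute CSR-1, and the CSR-1 pathway acts on transcripts of germline genes and is needed for chromosome segregation in the early embryo. The gonad of an adult hermaphrodite holds mitotic germ cells, meiotic cells and growing oocytes, enclosed by somatic sheath cells. In pooled gonads, fewer cells of a type and less RNA per cell cannot be told apart. None of the 49 listed marker genes of germline, oocyte, sperm, sheath, intestine, muscle, hypodermis and neurons, with cde-1 among them, had a named probe, so neither the tissue label nor the loss of cde-1 was checked here.

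A positive sign is taken as higher in the mutant, a likely direction that rests on how the values were written in the deposited table. If the sign were turned, the group would be low in the young mutant and high in the aged mutant. Had the deposited values of both orientations kept the same dye on top, their average would be a dye effect, and the genotype effect would be their difference divided by 2. For these 114 genes that quantity had a median of 0.00875 in young adults, from -0.156 to 0.203, and of -0.002 in aged adults, from -0.424 to 0.297. The rule chose genes whose arrays of a stage lie on the same side, which by itself keeps this quantity small. The group's opposed stages hold only under the reading in which 1 array of each pair had been turned. These values cannot tell which reading is right.

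On the young adult array with the mutant in Cy5 the members ran from 0.101 to 0.843 with a median of 0.297. Their median was 0.266 on the young array with the mutant in Cy3, with a range of 0.101 to 0.834. In aged adults, the array carrying the mutant in Cy5 gave a median of -0.262, from -1.01 to -0.103, and the other a median of -0.241, from -1.04 to -0.101. The medians of both young arrays thus lay at similar levels, as did those of both aged arrays. The rule holds both arrays of a stage past the same cutoff, which by itself brings their medians together. Gene by gene, the members' arrays of a stage correlated at Pearson 0.761 in young and 0.362 in aged adults. Over all 2148 measured coding genes the medians of the 4 arrays, in that order, were 0.0402, -0.0289, 0.113 and -0.00133.

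**Figure D1:**
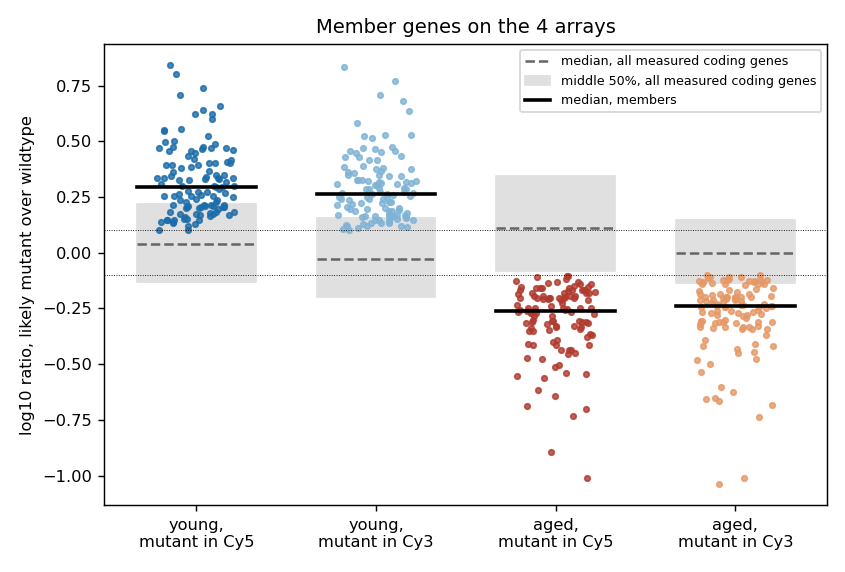
Log10 ratio (y axis) of the 114 member genes on each of the 4 arrays (x axis), 1 point per gene, with the members' median as a black bar, the middle part of all 2148 measured coding genes (25th to 75th percentile) as a grey box and their median as a dashed line. Dotted lines mark the cutoffs of 0.1 and -0.1 that chose the members, whose medians are 0.297, 0.266, -0.262 and -0.241.

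Averaged over its 2 arrays, the young adult ratio of the members had a median of 0.270, which is 1.86-fold higher in the mutant, and ranged from 0.106 to 0.819. The aged adult ratio had a median of -0.255, which is 1.80-fold lower in the mutant, and ranged from -0.968 to -0.126. The young minus aged difference had a median of 0.559, against -0.0306 over all measured coding genes. The size was larger in young adults for 52 members and in aged adults for 62. Both young arrays were above 2-fold for 39 members and both aged arrays below it for 24, and 13 members passed 2-fold on all 4 arrays. The shares of all measured coding genes past 2-fold are not given here. The rule already held every member past the cutoff on each array, so these counts only describe the members.

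Ratios above 0.1 on both young arrays were present for 505 of the 2148 coding genes (23.5%), and ratios below -0.1 on both aged arrays for 274 (12.8%). The 114 members were 5.31% of the measured coding genes. Of the genes high in young adults, 22.6% were low in aged adults and 18.6% high there. Of those low in aged adults, 41.6% were high in young adults and 9.49% low there. The shares of all measured coding genes high in aged or low in young adults are not given here. The 18.6% and 9.49% therefore stand without a background. The reverse pattern, low on both young and high on both aged arrays, was more frequent at 192 genes (8.94%), or 186 once the symbol prefixes kept out of the group are left out here too. A total of 94 genes (4.38%) were above the cutoff on all 4 arrays and 26 (1.21%) below it. All these counts come from the choice of a cutoff and were not tested.

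**Figure D2:**
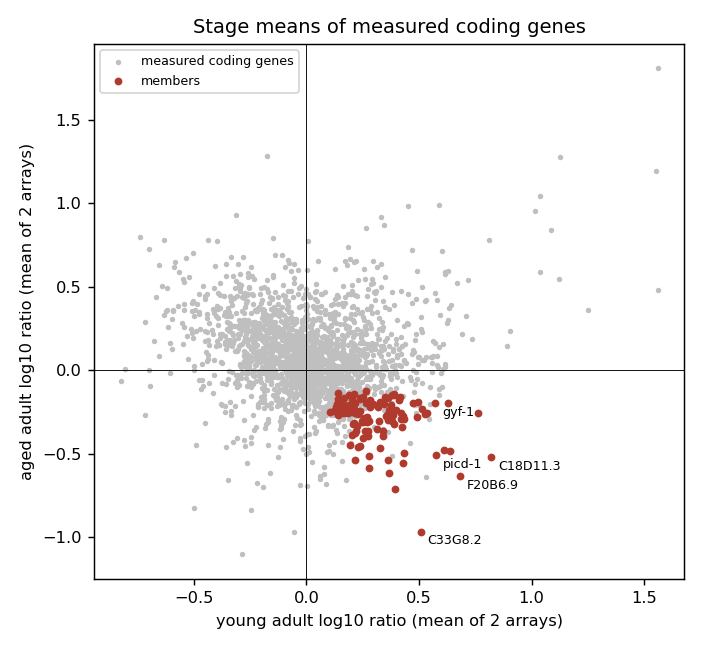
Mean log10 ratio of the 2 young adult arrays (x axis) against that of the 2 aged adult arrays (y axis) for the 2148 measured coding genes in grey, with the 114 members in red. The members fill part of the lower right quadrant, with C33G8.2 lowest in aged adults at -0.968 and C18D11.3 farthest right at 0.819.

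The gene with the largest stage difference was C33G8.2, on chromosome V. Its ratios, with the array of the mutant in Cy5 first in each stage, were 0.549 and 0.465 in young and -0.896 and -1.04 in aged adults. It stood 3.21-fold higher in young and 9.29-fold lower in aged adults, the lowest aged mean of the group. C18D11.3, on chromosome III, had the highest young mean, with 0.804 and 0.834 in young and -0.435 and -0.604 in aged adults, or 6.59-fold higher and 3.31-fold lower. The third was F20B6.9, on the X chromosome, with 0.657 and 0.707 against -0.614 and -0.655. At 4.81-fold higher and 4.31-fold lower, this gene had a more even profile than C33G8.2 or C18D11.3. Its smallest size on any array, 0.614, was the largest such value in the group.

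Y65B4BL.7 on chromosome I had young ratios of 0.641 and 0.635 and aged ratios of -0.310 and -0.654, so its young arrays agreed more closely than its aged ones. Y46H3C.5 on chromosome V had 0.336 and 0.451 in young and -0.416 and -1.01 in aged adults, again with a wide gap between the aged arrays. In Y23H5B.5, on chromosome I, the young side was the larger, with 0.843 and 0.681 against -0.198 and -0.313. D2096.11 on chromosome IV leaned to the aged side, with 0.394 and 0.344 against -0.545 and -0.684. F59A7.2 on chromosome V had 0.401 and 0.456 in young and -0.378 and -0.739 in aged adults. C06C3.7 on chromosome II had 0.393 and 0.328 against -0.538 and -0.534, and B0035.15 on chromosome IV had 0.336 and 0.345 against -0.416 and -0.315. The sources used here attach no role to these sequence names, which make up 88 of the 114 members.

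Y13C8A.1, on the X chromosome, was the only member with 2 probes. One probe gave 0.641 and 0.769 in young and -0.731 and -0.666 in aged adults. The other gave 0.272 on the young array with the mutant in Cy5, no ratio on the other young array, and -0.279 and -0.226 in aged adults. Both probes therefore had the same signs, at different sizes, and the gene's means were 0.613 in young and -0.476 in aged adults.

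**Figure D3:**
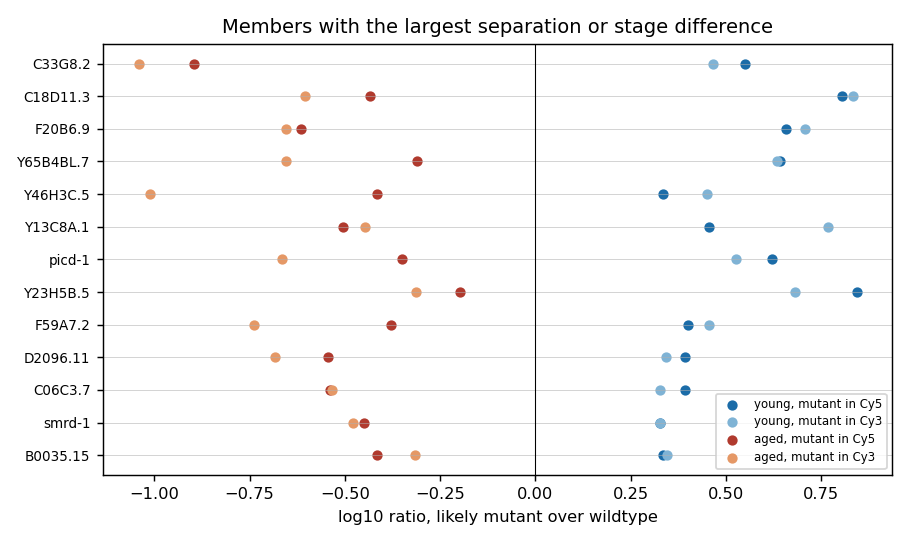
Log10 ratio (x axis) on each of the 4 arrays for the 13 members with the largest stage difference or the largest smallest size over the arrays (y axis, 1 row per gene), with young arrays in blue and aged arrays in red and orange. Every row has its blue points right of 0 and its red and orange points left of it, from C33G8.2 with a difference of 1.475 to B0035.15 with 0.706.

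A gene symbol was attached to 26 members (22.8%), close to the 24.1% of all measured coding genes, and a role is given here for 22 of them. These 22 spread over RNA splicing, small RNA pathways, chromatin, signalling, mitochondria, purine metabolism, membrane transport and structural proteins, with at most 5 genes in any of these. Their median difference was 0.503, against 0.585 for the members known only by a sequence name. The role groups were formed after the members were known and were not tested. They describe only genes with a named probe: 14844 of the 22562 probes had no gene name. None of the 49 listed marker genes had a named probe, so roles carried by such well-studied genes could not be seen here.

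The splicing and RNA-binding group held 5 members. The highest in young adults was rbm-3.1, an RNA recognition motif protein, with 0.333 and 0.365 against -0.103 and -0.214 in aged adults. The gene rbmx-2, a homologue of the splicing-associated RNA-binding protein RBMX2, had 0.295 and 0.349 against -0.342 and -0.270, the largest difference of the group at 0.628. For prp-40, a splicing factor associated with the U1 snRNP that recognises the 5′ splice site, the values were 0.308 and 0.168 against -0.271 and -0.222. Both remaining genes had small ratios, ccdc-12 with 0.137 and 0.139 against -0.201 and -0.206 and wbp-4 with 0.181 and 0.101 against -0.270 and -0.126. Their human homologues are spliceosome-associated proteins. The young means of the 5 ran from 0.138 to 0.349 and the aged means from -0.306 to -0.159.

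Relatives by name were measured for 3 of these splicing and RNA-binding genes. The splicing factor prp-18 had -0.179 and -0.316 in young and 0.161 and -0.0454 in aged adults. Of the 4 other rbm genes measured, rbm-12 had -0.115 and -0.236 against 0.707 and 0.262, and rbm-17 had -0.0988 and -0.177 against 0.0956 and 0.0581, the reverse of rbm-3.1. The values of rbm-34 were -0.253 and -0.192 against -0.0971 and 0.161, and the orientations of rbm-7 disagreed in both stages, with means of 0.057 and -0.0745. For wbp-2 all 4 arrays were positive, from 0.035 to 0.559, and for wbp-11 the stage means were -0.0935 and -0.103.

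Small RNA and microRNA pathways had 2 members. GTSF-1 of C. elegans binds the RNA-dependent RNA polymerase RRF-3 and takes part in making the endogenous small RNAs known as 26G RNAs. The gtsf-1 ratios were 0.176 and 0.252 in young and -0.166 and -0.227 in aged adults, or 1.64-fold higher and 1.57-fold lower, so both stages were of like size and below the group's median. GYF-1 is a GYF domain protein that takes part in microRNA-mediated repression. The gyf-1 ratios were larger in young adults, at 0.709 and 0.431, or 3.72-fold higher, than in aged adults, at -0.156 and -0.239, or 1.58-fold lower.

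Chromatin and chromosome proteins had 3 members, with the largest median difference, 0.791, of the role groups. The gene picd-1, whose product holds a Cabin1 domain and is linked to the Axin homologue PRY-1, had 0.621 and 0.527 in young and -0.349 and -0.666 in aged adults. It stood 3.75-fold higher and 3.22-fold lower and had the largest difference, 1.08, of any member with a symbol. For smrd-1, related to the SNF2-type chromatin remodeller SMARCAD1, the ratios were 0.326 and 0.327 against -0.449 and -0.479, with close agreement of the orientations. CTF-8 is a subunit of the alternative clamp loader that acts in sister chromatid cohesion. Its gene had 0.173 and 0.266 against -0.438 and -0.285, the aged side being the larger. A further measured ctf gene, ctf-4, which encodes a replisome protein, had -0.151 and -0.143 against 0.118 and -0.198.

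**Figure D4:**
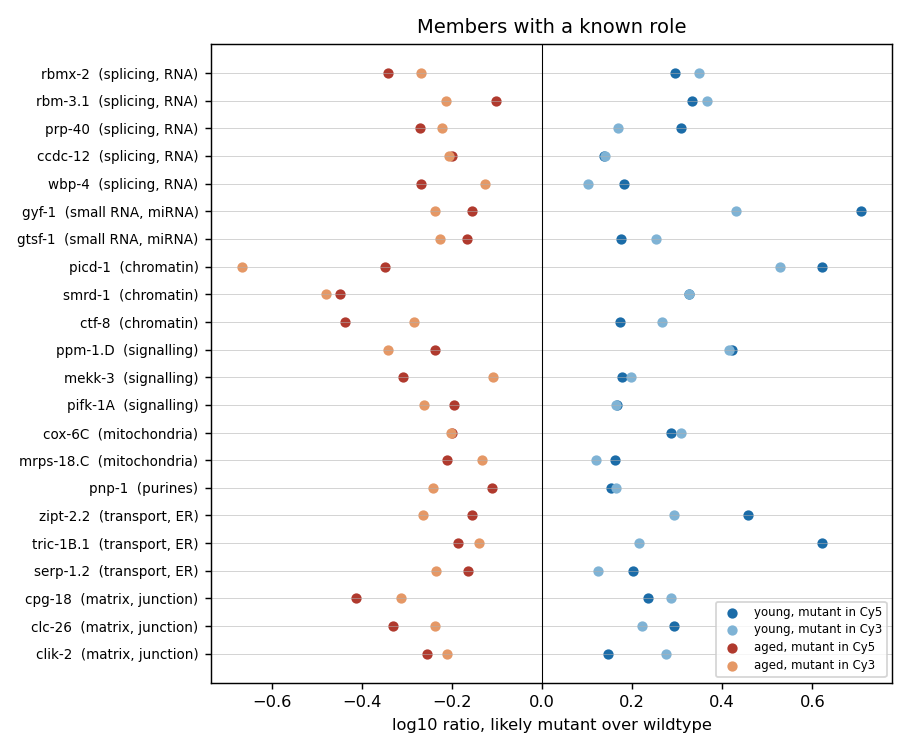
Log10 ratio (x axis) on each of the 4 arrays for the 22 members with a known role, 1 row per gene, ordered by role and then by stage difference, with young arrays in blue and aged arrays in red and orange. The widest separation is that of picd-1, with a difference of 1.08, and the narrowest that of mrps-18.C, with 0.313.

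Signalling enzymes numbered 3. The PP2C-type protein phosphatase gene ppm-1.D had 0.422 and 0.415 in young and -0.237 and -0.343 in aged adults. The MAP kinase kinase kinase homologue mekk-3 had 0.178 and 0.198 against -0.308 and -0.109, and pifk-1A, a phosphatidylinositol 4-kinase gene, 0.167 and 0.163 against -0.195 and -0.262. The phosphatase thus had the larger difference, 0.709, and both kinase genes lay near 0.4, at 0.397 and 0.394.

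The mitochondrial members were cox-6C, a subunit of cytochrome c oxidase, and mrps-18.C, a protein of the small subunit of the mitochondrial ribosome. The ratios of cox-6C were 0.285 and 0.308 in young and -0.201 and -0.202 in aged adults. Those of mrps-18.C were 0.161 and 0.120 against -0.211 and -0.133, the smallest difference among the members with a role. Of the other measured genes with these stems, cox-18, which acts in assembly of the oxidase, had stage means of -0.0698 and 0.210 and cox-19 had -0.121 and 0.230, while mrps-27 lay within 0.063 of 0 on all 4 arrays, with both aged arrays negative. In purine metabolism, the purine nucleoside phosphorylase gene pnp-1 had 0.153 and 0.164 against -0.111 and -0.243.

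Membrane transport and the endoplasmic reticulum had 3 members. The zinc transporter gene zipt-2.2 had 0.457 and 0.292 in young and -0.155 and -0.265 in aged adults. Of the 4 other zipt genes measured, zipt-1 showed the reverse, with -0.487 and -0.414 against 0.149 and 0.326, and zipt-11 also, with -0.244 and -0.123 against 0.0103 and 0.0898. The young ratios of zipt-2.3 were within 0.011 of 0, and the orientations of zipt-3 had opposite signs in both stages. TRIC channels pass monovalent cations across the membranes of intracellular calcium stores. The young arrays of tric-1B.1 were 0.621 and 0.215, the largest young gap between orientations in the whole group, and its aged arrays were -0.186 and -0.140. The gene serp-1.2, named for a small stress-associated protein of the endoplasmic reticulum, had 0.202 and 0.123 against -0.165 and -0.236.

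Matrix, junction and contractile proteins made up the last 3. Chondroitin proteoglycans of the cpg family include components of the eggshell, and cpg-18 had 0.236 and 0.285 in young and -0.413 and -0.313 in aged adults. The claudin-like gene clc-26 had 0.293 and 0.222 against -0.332 and -0.239. A second measured clc gene, clc-24, was higher in young adults, at 0.606 and 0.626, and near 0 in aged adults, at -0.0865 and 0.125. The calponin-like gene clik-2 had 0.147 and 0.274 against -0.255 and -0.212. All 3 members of this group had young means between 0.211 and 0.261 and aged means between -0.363 and -0.234.

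The remaining symbols were slmp-1, txt-4, vtip-1 and ddn-3, for which no role is given here. The ratios of slmp-1 were 0.401 and 0.363 against -0.273 and -0.336. For txt-4 the values were 0.349 and 0.286 against -0.310 and -0.131, for vtip-1 0.332 and 0.129 against -0.284 and -0.236, and for ddn-3 0.392 and 0.134 against -0.267 and -0.120. Among the 3 other txt genes measured, txt-8 had 0.315 and 0.337 in young and 0.0752 and -0.268 in aged adults, txt-14 had 0.438 and -0.196 against -0.081 and -0.209, and txt-19 had 0.075 and -0.124 against 0.113 and 0.124. A measured relative of ddn-3, ddn-2, had 0.285 and 0.0445 against 0.179 and -0.425. The stage means were 0.121 and -0.145 for txt-14 and 0.165 and -0.123 for ddn-2, on the members' side in both stages, while the orientations disagreed in sign in 1 stage of each. Over all stems, 20 coding relatives of 10 members were measured. None of the 20 was positive on both young and negative on both aged arrays, against 293 (13.6%) of all measured coding genes. The 114 members are among these 293 but were left out of the relatives, so this background is too high for them. The reverse signs on all arrays were present in 4, against 19.2% of all measured coding genes. By stage means, 5 (rbm-7, mrps-27, ddn-2, txt-14 and txt-8) were positive in young and negative in aged adults, or 25%, against 21.0% of the measured coding genes outside the group. The relatives are few, and no group was called different from its family.

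Gene classes listed by symbol stems, which miss several symbols described above, covered only 41 measured coding genes, in 10 of 14 classes, and 1 of these was a member, mrps-18.C (2.44%, against 5.31% of all measured coding genes). The other 9 classes with a measured gene matched no member by these stems.

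By chromosome, 33 members lay on IV, 21 on III, 17 each on I and II, 15 on V and 11 on X. Chromosome IV thus held 28.9% of the members and 17.0% of all measured coding genes. Of its 366 measured coding genes, 9.02% were members, while the other chromosomes ranged from 3.92% on V to 5.51% on III. The share on IV was 21.5% among the genes with the reverse pattern and 19.2% among all genes high in young adults. With a cutoff of 0.05 in place of 0.1 it was 20.5%, with sign alone 19.9%, and with a cutoff of 0.2 it was 31.4% of 35 genes. Leaving out 1 array gave 22% to 25.7%. The members' median stage difference was 0.559 on IV, within the range of 0.491 on III to 0.664 on V. These shares were not tested.

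**Figure D5:**
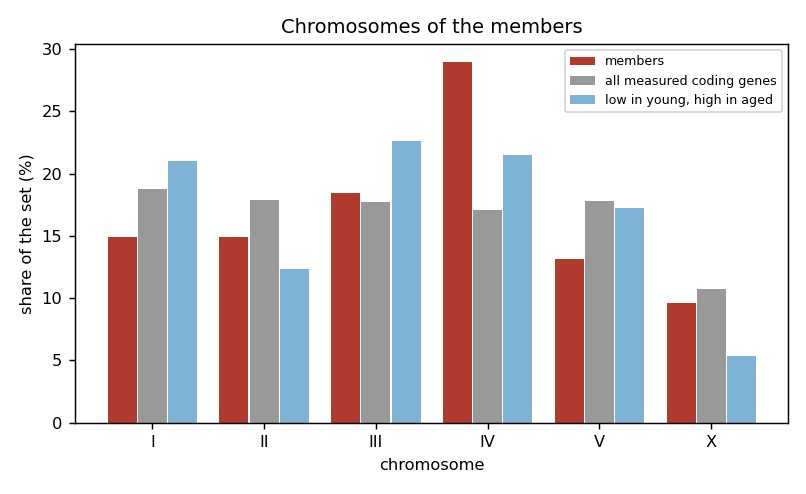
Share of genes in percent (y axis, from 0) on each chromosome (x axis) for the 114 members in red, all 2148 measured coding genes in grey and the 186 coding genes with the reverse pattern, under the same rule, in blue. Chromosome IV holds 28.9% of the members against 17.0% and 21.5% of the other sets.

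Immediate neighbours on a chromosome were measured for 29 members. They amounted to 35 genes, of which 2 were themselves members, while 5.31% of all measured coding genes were members. These 2 are a single adjacent pair, D2096.10 and D2096.11 on chromosome IV, counted from both sides. D2096.10 had 0.299 and 0.205 in young and -0.334 and -0.482 in aged adults, smaller than D2096.11 on every array. Of the other 33 neighbours, 9 (27.3%) had a positive young and a negative aged mean, against 21.0% of the 2034 measured coding genes outside the group. Their median ratios were 0.005 in young and 0.103 in aged adults, against 0.00718 and 0.0582 over all measured coding genes. Next to ppm-1.D, for example, Y54F10BM.13 had means of -0.331 and 0.392, and next to C15B12.8, C15B12.4 had 0.260 and -0.213.

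Members differed in how well the orientations agreed. The members' median gap between the arrays of a stage was 0.064 for young and 0.0935 for aged adults, against 0.123 and 0.196 over all measured coding genes. The rule itself favours arrays that lie close together. Agreement was closest for ccdc-12, C13A10.1, Y71F9B.1 and Y73B3A.11, whose gaps did not exceed 0.018. The widest gaps were in aged adults. F54F2.9 had -1.01 with the mutant in Cy5 and -0.162 with it in Cy3, a gap of 0.848 with young ratios of 0.253 and 0.304. T25B9.6 had -0.701 and -0.192, C25E10.8 had -0.641 and -0.142, and Y46H3C.5 had the opposite order. A gap above 0.3 was found in young adults for 2 members and in aged adults for 13, and over all measured coding genes for 393 (18.3%) and 744 (34.6%).

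The cutoff itself ran through a continuous range. The smallest size over the arrays was 0.101 in 4 members. B0454.5 and Y55F3BR.1 had it on the aged array of the mutant in Cy3, wbp-4 on the young array of the mutant in Cy3, and Y51H4A.24 on the other young array. Just outside were C16C10.8, with 0.221 and 0.0995 in young and -0.847 and -0.238 in aged adults, and C52A10.3, with 0.190 and 0.315 against -0.192 and -0.0993. A further 34 coding genes met the rule on 3 arrays and had no ratio on the fourth, and 133 met it on 1 array of each stage and had no ratio on the others. These genes were left out of the group.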

How the data were processed

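The authors deposited 1 table with a log10 ratio per probe and array for 22562 probes, with 2 channels per array. Per the submitters' processing notes, Agilent Feature Extraction was used; no version is named, and the sources used here do not give its dye normalization or background correction. The log10 base follows that program's convention and was not checked against scanner signals, so folds rest on it. Exact zeros, 43.7% to 52.2% of an array, were treated as missing.

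Platform annotation named 7718 probes for 7477 genes; 7691 probes matched the WBcel235 RefSeq table by gene identifier and 27 by symbol. The array's build is unknown here, so no coordinates are printed. A gene's value is the mean of its probes.

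Within a stage, both orientations correlated positively (Pearson 0.652 in young and 0.434 in aged adults across the 2148 genes) and were averaged as they stood. Where the mutant was in Cy5, every nonzero value (11541 in young and 12418 in aged adults) was in scientific notation, against 0 on the other arrays. The likely direction rests on this format alone.

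Symbols starting pid-, eif-, algn-, pig, spig-, nspg-, lido-, nlp-, ints-, gtf-, metl- or cest- were left out, and 0 of them met the rule. Members and lists were chosen with earlier results of these data known. Named are the 12 members of largest smallest size over the arrays, the 8 of largest stage difference, up to 3 per symbol class, those with several probes, 2 members of the 4 tied nearest the cutoff and the 2 genes nearest outside it, the 4 of smallest and 4 of largest orientation gap, and neighbouring members; all 26 with a symbol were added after their values were seen. No test was run, because the rule used every array. The precision is limited by the number of arrays and by having 1 RNA sample per stage and genotype. The code of the rule was checked on simulated data, with planted members past the cutoff and all other values inside it. Array noise was not simulated, so this check says nothing on false members. Cutoff, centring, scaling, zeros, each array and the reading of the swap were varied. No sequences were used here. Python 3.11.15 and pandas 2.3.3 were used.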

Additional observations from a re-analysis of the deposited data

Results flagged for a closer look

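All 114 members moved one way on both young adult arrays and the other way on both aged adult arrays, with a median young minus aged difference of 0.559. The rule chose them for this, and the difference was not tested, with 1 RNA sample for a stage and genotype.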

How the results depend on the processing

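The number of members was 114, and 185 at a cutoff of 0.05, 35 at 0.2 and 291 by sign alone. Leaving out 1 array gave 147 to 209, since fewer arrays had to pass; it was 209 without the Cy5-mutant array of aged adults and 178 without their other array. Centring gave 128 members and centring with scaling 129, of which 112 were shared with the 114. Applied to the orientation difference divided by 2, the rule gave 46 genes and none of the 114. The median young ratio was 0.270, and 0.266 to 0.297 leaving out 1 array. The median aged ratio was -0.255, and -0.281 after centring, -0.273 after scaling and -0.241 to -0.262 leaving out 1 array. The median difference was 0.559, and 0.524 to 0.599 leaving out 1 array. With both orientations read as keeping the same dye on top, the 3 medians were 0.00875, -0.002 and 0.0235. With the sign turned they were -0.270, 0.255 and -0.559. For 45 named genes, 6 settings of centring, scaling and arrays left out were added after seeing the data. Of 270 differences, 252 moved by less than the spread of the orientations, 18 moved by more and 0 changed sign. Leaving out 1 array cannot move a difference past this spread, which is built from the gaps between the same arrays. Nor can it change the sign, which the rule fixes on every array. All 18 larger moves thus came from centring or scaling. Classes from gene descriptions were not run, because the reference table used here holds no descriptions. No paired analysis was possible because no test was run and no numbers in the labels link samples across stages. Brightness over background is not in the values used here, so dim spots cannot be told from bright ones.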

Other observations

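Pseudogenes, which the rule leaves out, held 7 of 70 measured with the same pattern (10%, against 5.31% of measured coding genes). F20B6.7 on the X chromosome had 0.451 and 0.488 in young and -0.670 and -0.644 in aged adults, near the profile of the coding member F20B6.9. Y9D1A.2 on chromosome II had 0.644 and 0.610 against -0.336 and -0.470, and Y73B3B.5 on the X chromosome 0.622 and 0.494 against -0.171 and -0.472. C52B11.4, also on the X chromosome, had 0.199 and 0.212 against -0.564 and -0.576. Whether a probe of one of these matches a related coding gene was not tested.

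Among the 6013 probes without a gene name that had 4 ratios, 284 (4.72%) were above 0.1 on both young and below -0.1 on both aged arrays, and 710 (11.8%) had the reverse. The 284 had median stage means of 0.291 and -0.273, close to those of the members. Both sets were chosen with the same cutoffs on the same arrays, which by itself brings their medians together.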
